A study of Mus musculus with 28 samples.

Results

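The genes that Leydig cells use to make androgens were followed through 5 mouse testis mRNA libraries. They were chosen by name, 10 among the 34839 genes of the gene table: Lhcgr, Nr5a1, Star, Cyp11a1, Hsd3b1, Hsd3b6, Cyp17a1, Hsd17b3, Srd5a1 and Insl3. All 10 were present, each once, and all 10 passed the filter on low values in every fit. The series examines the functions of the domains of PRDM9, the enzyme that marks sites of meiotic recombination, and holds 28 samples. The libraries used here were whole testes of C57BL/6 mice: 2 labelled Prdm9 KO, 2 labelled Hop2 KO and 1 wild type, titled adult. HOP2, the product of Psmc3ip, assists strand exchange in meiosis. The labels give no age for the knockouts, do not describe the alleles, and do not say whether the libraries of a genotype came from separate or pooled animals. P-values therefore measure only how these libraries scatter, and that scatter may be technical.

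Leydig cells lie between the seminiferous tubules and make testosterone. Luteinizing hormone binds the receptor encoded by Lhcgr, and the transcription factor encoded by Nr5a1 activates many steroidogenic genes. STAR brings cholesterol into mitochondria, where CYP11A1 cuts its side chain to give pregnenolone. HSD3B enzymes, CYP17A1 and HSD17B3 then carry the steroid to testosterone, which the reductase encoded by Srd5a1 can turn into dihydrotestosterone. INSL3 is a peptide hormone of Leydig cells that acts on the receptor RXFP2.

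Expression values are the TPM (a length-corrected share of transcripts) of the deposited table, which had been rescaled between libraries. Column sums ran from 825459 to 953598 in the knockouts and reached 1622660 in wild type, and read depth is unknown. Psmc3ip was 3.51 and 5.06 in Hop2 KO but 22.8 and 26.4 in the Prdm9 KO libraries, with 197 in wild type. Prdm9 was 4.73 and 5.93 in the Prdm9 KO libraries, 10.7 and 15.0 in the Hop2 KO libraries, with 6.20 in wild type, and so separates the Prdm9 KO label only from Hop2 KO. Within both knockouts the libraries numbered 2 differed from those numbered 1 in several genes described here, and the labels do not say what a number shares.

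The core of the pathway was higher in both knockouts than in wild type, by 4.68 times (Star in Hop2 KO) to 10.3 times (Hsd3b6 in Hop2 KO) in the group means. Of the 10 genes, 8 rose in Prdm9 KO, where 34.6% of the 16261 genes tested rose (limma, Benjamini-Hochberg adjusted p under 0.05). The same number, 8, rose in Hop2 KO, where 35.0% of all tested genes rose, and 0 of the 10 fell in either, where 39.4% and 39.5% of all tested genes fell. The median log2 change of the list was 2.58 in Prdm9 KO and 2.69 in Hop2 KO, against -0.08 and -0.06 over all tested genes. Markers of some other testis cells had medians nearly as high, at 2.23 and 2.46 for Sertoli cells and 2.16 and 2.47 for macrophages. Medians were lower for spermatogonial (1.74 and 1.66), peritubular (0.78 and 1.09) and endothelial markers (0.68 and 0.81). Those of spermatids were negative (-13.5 and -12.7). Both comparisons use the same wild-type library, which is assumed to vary like the knockouts. Insl3 and Srd5a1 did not pass. All knockout libraries lay above wild type for 9 of the 10 genes, Insl3 included, as they did for 46.2% of all tested genes in Prdm9 KO and 46.1% in Hop2 KO. In whole testis a larger share of Leydig cells and more RNA per Leydig cell cannot be told apart.

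The columns can be scaled in other ways, and this bears on the size of every change from wild type. Rescaling each column to 1000000 raised the median of all genes by 0.84 in Prdm9 KO and 0.74 in Hop2 KO, quantile normalization by 0.66 and 0.65, and median-ratio scaling by 0.26 and 0.25. The share of calls that were rises, 46.8% in Prdm9 KO and 47.0% in Hop2 KO, became 66.0% and 64.0% with rescaled columns and 61.8% and 61.5% with quantile normalization. The 8 genes stayed higher in both knockouts under each of these scalings. Relative to the median of all tested genes, their log2 changes lay between 2.35 (Star) and 3.26 (Hsd3b1) in Prdm9 KO and between 2.27 (Star) and 3.40 (Hsd3b6) in Hop2 KO.

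**Figure D1:**
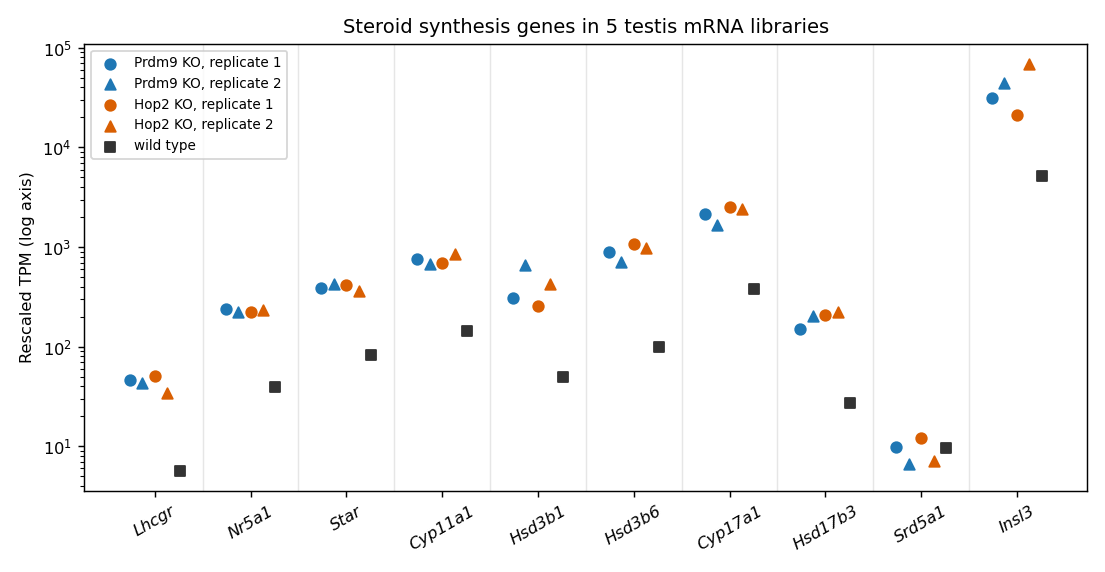
Level of each gene (rescaled TPM, log axis) in the 5 mRNA libraries, ordered by role, with 1 symbol per library. For 9 of the genes all 4 knockout libraries lie above the wild-type library; for Srd5a1 wild type lies within the knockout range.

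Lhcgr, the luteinizing hormone receptor, was low beside the enzymes other than Srd5a1 in every library. Its values were 46.8 and 43.3 in the Prdm9 KO libraries, 51.3 and 34.7 in the Hop2 KO libraries, with 5.70 in wild type. The knockouts overlapped each other and all lay above wild type, by 2.78 in Prdm9 KO and 2.69 in Hop2 KO on the log2 scale (SE 0.27 each, limma adjusted p = 0.00251 and 0.00268). It was the lowest of the 10 genes in wild type, and the second lowest, above Srd5a1, in both knockouts.

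Nr5a1, which encodes the steroidogenic factor, was the steadiest of the 10 across knockouts. It measured 242 and 224 in the Prdm9 KO libraries, 223 and 233 in the Hop2 KO libraries, with 39.2 in wild type. The genotypes overlapped and the knockout libraries lay close together. Its log2 change was 2.54 in Prdm9 KO and 2.51 in Hop2 KO (SE 0.11 each, limma adjusted p = 0.000303 and 0.000310).

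Star, the carrier that feeds cholesterol to the first enzyme, was 390 and 423 in the Prdm9 KO libraries, 416 and 362 in the Hop2 KO libraries, with 83.0 in wild type. The 2 genotypes interleaved, and the spread between libraries was small beside the step from wild type. The mean of Prdm9 KO was 4.89 times and that of Hop2 KO 4.68 times the wild-type value (log2 2.28 and 2.21, SE 0.15, limma adjusted p = 0.000931 and 0.000967), the smallest steps among the 8 genes that rose.

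Cyp11a1, the side-chain cleavage enzyme, behaved like Star. It was 763 and 671 in the Prdm9 KO libraries, 691 and 853 in the Hop2 KO libraries, with 144 in wild type. RefSeq places the gene Gm17322 across part of Cyp11a1. The knockouts overlapped and lay 4.99 and 5.37 times above wild type in their means (log2 2.31 and 2.41, SE 0.21, limma adjusted p = 0.00205 and 0.00180).

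Cyp17a1, which opens the branch to androgens, was the most abundant enzyme of the list. It was 2151 and 1649 in the Prdm9 KO libraries, 2501 and 2407 in the Hop2 KO libraries, with 380 in wild type. It ranked between 21 and 31 among all genes in the knockouts and at 862 in wild type. Its log2 change was 2.31 in Prdm9 KO and 2.69 in Hop2 KO (SE 0.29, limma adjusted p = 0.00485 and 0.00317). RefSeq places the lncRNA gene Gm41857 across Cyp17a1, and the sources used here do not say whether strand entered the quantification.

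Hsd17b3, which makes testosterone from androstenedione, was 151 and 202 in the Prdm9 KO libraries, 207 and 221 in the Hop2 KO libraries, with 27.5 in wild type. Both Prdm9 KO libraries lay below both Hop2 KO libraries and all lay above wild type. The log2 change from wild type was 2.62 in Prdm9 KO and 2.91 in Hop2 KO (SE 0.21, limma adjusted p = 0.00160 and 0.00121).

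**Figure D2:**
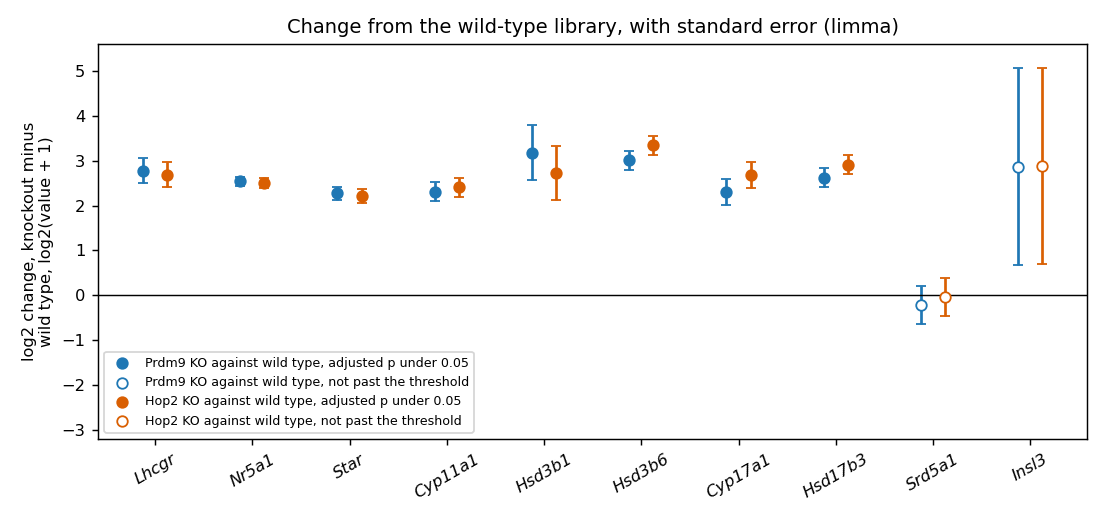
Log2 change of each gene from the wild-type library on the log2(value + 1) scale in Prdm9 KO (blue) and Hop2 KO (orange), with bars for the limma standard error and open symbols where the adjusted p missed 0.05. The 8 genes that rose lie between 2.21 and 3.34, Insl3 has the same height with a standard error of 2.19, and Srd5a1 lies near 0.

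Hsd3b6 and Hsd3b1 are neighbouring genes on chromosome 3 for enzymes of the same step, in similar sequences, so that reads from shared stretches could have been split between them. Hsd3b6 is the form known from adult Leydig cells. Their promoters are shown because the pair parted between libraries. The lines give the 250 bases before each start site (RefSeq, GRCm38.p6, both on the minus strand), Hsd3b6 at chr3:98814444-98814693 and Hsd3b1 at chr3:98859795-98860044. Capitals mark the GATA-type motif AGATAA, read on either strand.
Hsd3b6: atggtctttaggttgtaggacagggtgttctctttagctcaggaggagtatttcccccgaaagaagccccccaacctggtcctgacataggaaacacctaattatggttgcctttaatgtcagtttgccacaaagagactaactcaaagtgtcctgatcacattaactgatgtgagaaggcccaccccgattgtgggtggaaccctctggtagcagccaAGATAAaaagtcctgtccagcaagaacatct
Hsd3b1: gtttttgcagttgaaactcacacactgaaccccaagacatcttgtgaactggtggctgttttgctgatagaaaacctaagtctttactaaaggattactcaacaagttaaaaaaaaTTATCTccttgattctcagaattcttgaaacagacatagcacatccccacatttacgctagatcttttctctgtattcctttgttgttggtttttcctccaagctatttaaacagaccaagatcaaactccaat

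In a global alignment the pair of windows matched at 127 of 274 columns (46.4%). No other windows were aligned for comparison, so this share cannot say whether the promoters are related. The motif begins 31 bases before the start of Hsd3b6, on its own strand, and 134 bases before the start of Hsd3b1, on the opposite strand. It occurs on either strand in 9.99% of the 32851 windows of this length in the table. A match is a description of letters and not a shown binding site.

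Hsd3b6 was 902 and 714 in the Prdm9 KO libraries, 1062 and 968 in the Hop2 KO libraries, with 99.0 in wild type. Prdm9 KO lay below Hop2 KO without overlap, and both lay above wild type. The log2 change was 3.01 in Prdm9 KO and 3.34 in Hop2 KO (SE 0.21, limma adjusted p = 0.00116 and 0.000874), the largest in Hop2 KO.

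Hsd3b1 was 310 and 665 in the Prdm9 KO libraries, 257 and 425 in the Hop2 KO libraries, with 49.2 in wild type. In each knockout the library numbered 2 was higher, by 2.15 times in Prdm9 KO and 1.66 times in Hop2 KO, so the genotypes overlapped. Among all 14358 genes tested between the knockouts, 98.0% differed less between the Prdm9 KO libraries and 93.8% less between the Hop2 KO libraries. The log2 change from wild type was 3.18 in Prdm9 KO and 2.72 in Hop2 KO (SE 0.61, limma adjusted p = 0.0143 and 0.0214). The call in Hop2 KO was lost without Hop2 KO replicate 1 (adjusted p = 0.0526) or replicate 2 (0.0823) and without the filter on low values (0.0541), and over all 15 fits its adjusted p ran from 0.00696 to 0.0823.

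The sum of both genes was steadier than Hsd3b1 alone, at 1212 and 1378 in the Prdm9 KO libraries, 1319 and 1394 in the Hop2 KO libraries, with 148 in wild type. Hsd3b1 made up 25.6% and 48.2% of the sum in the Prdm9 KO libraries, 19.5% and 30.5% in the Hop2 KO libraries, with 33.2% in wild type. The wild-type share therefore fell within the range of the knockouts. The remaining genes of this cluster were low: Hsd3b2 was 1.57 in wild type and at most 0.565 in the knockouts, and Hsd3b3 did not exceed 0.405.

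Insl3 had the highest value of all genes in each of the 4 knockout libraries and ranked 10 in wild type. It was 31185 and 44712 in the Prdm9 KO libraries, 21025 and 68224 in the Hop2 KO libraries, with 5124 in wild type. All knockout libraries lay above wild type, by 6.09 and 8.73 times in Prdm9 KO and 4.10 and 13.3 times in Hop2 KO. Both Prdm9 KO libraries fell inside the interval spanned by the Hop2 KO libraries. The library numbered 2 exceeded the one numbered 1 by 1.43 times in Prdm9 KO and 3.24 times in Hop2 KO, more than 90.6% and 98.8% of tested genes differed.

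In the main fit, whose standard errors also draw on an intensity trend over all genes, Insl3 did not pass against wild type. Its log2 change was 2.87 in Prdm9 KO and 2.89 in Hop2 KO (SE 2.19, limma adjusted p = 0.300 and 0.298). It passed without the intensity trend of limma (adjusted p = 0.0452 and 0.0441), with robust moderation of the variances (0.0357 and 0.0347) and with quantile normalization (0.00161 and 0.00160), and over 15 fits adjusted p ran from 0.00161 to 0.519 and from 0.00160 to 0.610. Quantile normalization gives the top-ranked gene of each library the same value, so it removes the difference among the knockouts by construction. Insl3 took up 3.57% and 5.42% of the column sum in the Prdm9 KO libraries, 2.35% and 7.15% in the Hop2 KO libraries, with 0.316% in wild type. Without Insl3, the other 9 genes together took 0.557% to 0.605% in the knockouts and 0.0516% in wild type.

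Cyp17a1 was lower in the libraries numbered 2 of both knockouts, where Insl3 was higher. In Hop2 KO its step was small (2407 against 2501), and only 16.1% of tested genes differed less. Cyp11a1 was lower in that of Prdm9 KO but higher in that of Hop2 KO (853 against 691). Hsd3b1 and Hsd17b3 were higher in the libraries numbered 2 of both, Hsd17b3 by little in Hop2 KO (221 against 207). The ratio of Insl3 to Cyp11a1 within a library, which no factor applied to a whole column can change, was 40.9 and 66.6 in the Prdm9 KO libraries, 30.4 and 80.0 in the Hop2 KO libraries, with 35.6 in wild type. The wild-type ratio lay within the knockout range, between the libraries numbered 1. Over the same libraries Cyp17a1 stood at 2.82 and 2.46 times Cyp11a1 in Prdm9 KO, 3.62 and 2.82 times in Hop2 KO and 2.64 times in wild type.

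The promoter of Insl3 is shown because this gene had the highest level of the list and, in Hop2 KO, the widest spread; between the Prdm9 KO libraries Hsd3b1 was wider apart. It is the window of 250 bases before the start site at chr8:71689002-71689251, plus strand (RefSeq, GRCm38.p6). Capitals mark CAAGGTC and CAAGGCC, 2 spellings of the core that the NR5A1 protein is known to recognise.
Insl3: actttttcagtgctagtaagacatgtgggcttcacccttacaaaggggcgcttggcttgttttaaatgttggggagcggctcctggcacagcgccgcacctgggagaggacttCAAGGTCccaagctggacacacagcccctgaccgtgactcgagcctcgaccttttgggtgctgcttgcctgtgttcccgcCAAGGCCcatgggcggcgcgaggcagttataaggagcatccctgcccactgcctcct

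The motifs begin 137 and 57 bases before the start site, both on the strand of the gene. CAAGGTC occurs on either strand in 3.32% and CAAGGCC in 5.16% of the 32851 windows. These spellings were chosen after the Insl3 letters had been read, so the matches are no test. The other motifs searched on both strands were the NR5A1-type AAGGTCA with its variant spelling AAGGCCA, the TATA-box form TATAAA, the core TGACG of cAMP response elements, and the shorter AGGTCA with its variant spelling AGGCCA, which lie inside the first ones. Of the 8 windows that 7 of the genes have in the table, 0 held AAGGTCA (4.08% of all windows do), its variant spelling (5.24%) or the TATA-box form (12.4%). The shorter AGGTCA was in 2 (14.0% of all), its variant spelling in 1 (18.8%) and the cAMP core in 1 (17.8%). Star, Cyp17a1 and Nr5a1 have no entry. Insl3 lies within the span of Jak3 in RefSeq, and Jak3 was 20.3 and 20.1 in the Prdm9 KO libraries, 24.7 and 31.1 in the Hop2 KO libraries, with 11.5 in wild type, far below Insl3.

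Srd5a1 was the exception among the 10. It was 9.84 and 6.69 in the Prdm9 KO libraries, 12.2 and 7.06 in the Hop2 KO libraries, with 9.56 in wild type, so wild type lay inside both knockout ranges. The log2 change was -0.21 in Prdm9 KO and -0.03 in Hop2 KO (SE 0.42, limma adjusted p = 0.675 and 0.949). Both values turned positive with rescaled columns (0.62 and 0.69), quantile normalization (0.25 and 0.45) and median-ratio scaling (0.03 and 0.21), with no call in any of the 15 fits.

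The transcripts of Srd5a1 did not move alike. ENSMUST00000091514 was 7.73 and 5.08 in the Prdm9 KO libraries, 10.5 and 6.09 in the Hop2 KO libraries, with 3.82 in wild type, with every knockout above wild type. ENSMUST00000220731 was 1.42 and 1.15 in the Prdm9 KO libraries, 0.885 and 0.595 in the Hop2 KO libraries, with 4.49 in wild type, with every knockout below. The first made up 75.9% to 86.2% of the gene in the knockouts and 40.0% in wild type, and the second 7.23% to 17.1% against 47.0%. These values were not tested, and estimated transcript shares of a weakly expressed gene carry an error that the table does not give.

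**Figure D3:**
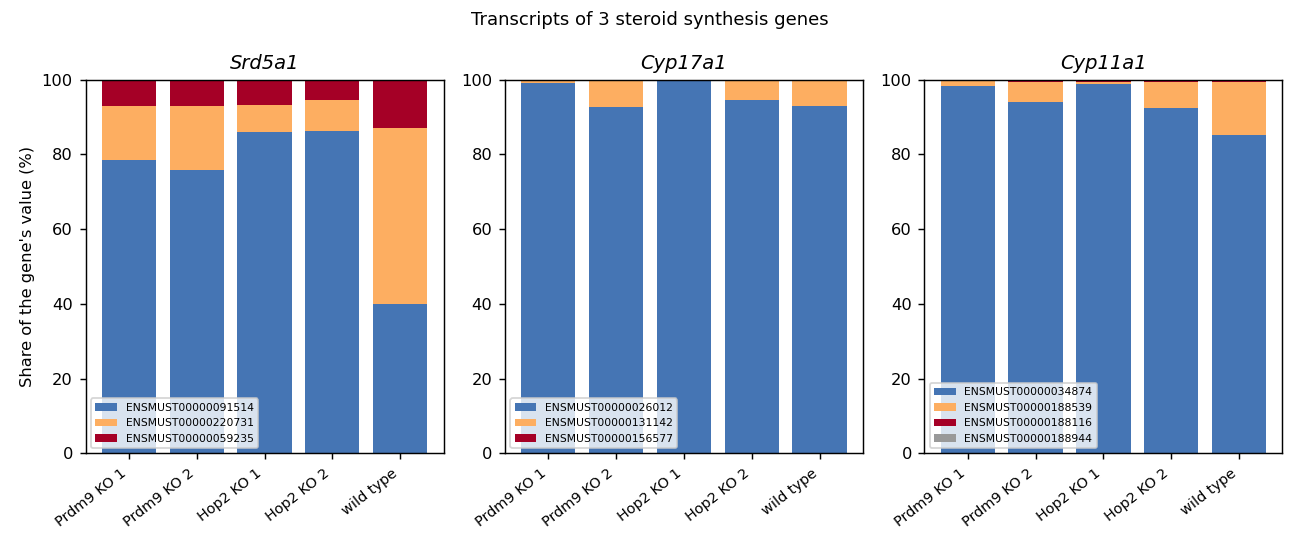
Share of each gene's value (%) assigned to its transcripts in the 5 libraries for Srd5a1, Cyp17a1 and Cyp11a1. Wild type differs from all knockouts in Srd5a1, while the second transcripts of Cyp17a1 and Cyp11a1 are larger in the knockout libraries numbered 2 than in those numbered 1.

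Of the other genes, 2 (Lhcgr and Insl3) had a single transcript and the rest had several, 27 transcripts in all for the 10. In Cyp17a1 and Cyp11a1 the main transcript held at least 85.3% of the gene in each library. The second transcript of Cyp17a1, ENSMUST00000131142, was 16.1 and 121 in the Prdm9 KO libraries, 7.11 and 129 in the Hop2 KO libraries, with 26.8 in wild type. That of Cyp11a1, ENSMUST00000188539, was 9.15 and 36.3 in the Prdm9 KO libraries, 4.14 and 61.4 in the Hop2 KO libraries, with 20.1 in wild type. Both were high in the libraries numbered 2, and wild type fell between. In Hsd17b3, ENSMUST00000221513 was 35.7 in Hop2 KO replicate 2 and 2.93 in wild type, while it was listed at 0 in both libraries numbered 1 and 0.00132 in Prdm9 KO replicate 2. Star was divided evenly, its 2 transcripts holding between 40.9% and 59.1% each in every library.

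Between the knockouts, none of the 10 genes passed. In the fit of the 4 knockout libraries 0 rose and 0 fell, where 0.0139% of 14358 genes rose and 0% fell, and 0 of the 10 had an unadjusted p under 0.05, against 3.10% of all genes. Psmc3ip and Prdm9, used above to check the labels, did not pass in this fit either. Their log2 changes were 2.29 (SE 0.19, limma adjusted p = 0.205) and -1.12 (SE 0.21, limma adjusted p = 0.972). A missing call in this fit therefore does not show that the genotypes agree. The groups did not overlap for Cyp17a1, Hsd3b6 and Hsd17b3 (3 of 10, all lower in Prdm9 KO), where 32.9% of all genes did not overlap, 21.0% being lower and 11.9% higher in Prdm9 KO. Their log2 changes, Prdm9 KO minus Hop2 KO, were -0.38 (SE 0.23), -0.34 (SE 0.19) and -0.29 (SE 0.18), with limma adjusted p = 0.972 for each. Nr5a1 (0.03, SE 0.12), Star (0.06, SE 0.15), Lhcgr (0.09, SE 0.21) and Cyp11a1 (-0.10, SE 0.19) were nearer to 0. Hsd3b1 (0.46, SE 0.44), Srd5a1 (-0.18, SE 0.31) and Insl3 (-0.02, SE 0.82) had wide errors, so these data cannot show whether the genotypes differ in them. In the authors' deposited table of gene tests, whose groups are not named, Cyp17a1 had the smallest p of the 9 genes with a value (0.0444), all 9 had q = 1, and Insl3 had none.

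The order of levels was similar in the groups. From high to low, the means ran Insl3, Cyp17a1, Hsd3b6, Cyp11a1, Hsd3b1, Star, Nr5a1, Hsd17b3, Lhcgr and Srd5a1 in Prdm9 KO, and Hop2 KO differed only in placing Star above Hsd3b1. Among neighbours in that order, Hsd3b6 and Cyp11a1 overlapped between libraries in Prdm9 KO, and Hsd3b1 and Star in both knockouts. In wild type Cyp11a1 (144) stood above Hsd3b6 (99.0), and Srd5a1 (9.56) above Lhcgr (5.70). Hsd3b6 was 1.18 and 1.06 times Cyp11a1 in Prdm9 KO and 1.54 and 1.14 times in Hop2 KO, against 0.688 in wild type. These ratios within libraries were not tested.

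**Figure D4:**
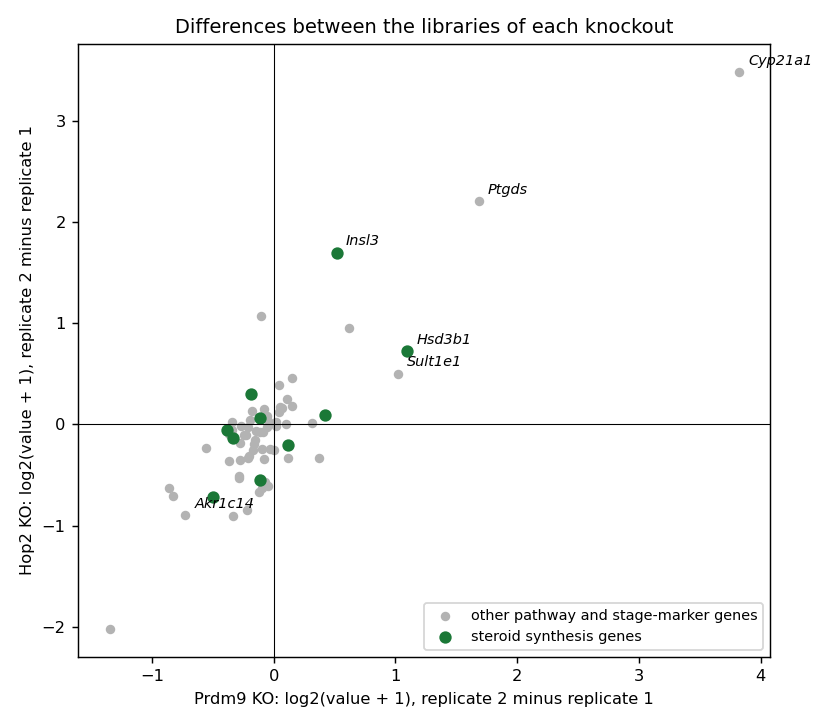
Difference between the libraries numbered 2 and 1 on the log2(value + 1) scale, in Prdm9 KO (x axis) and Hop2 KO (y axis), 1 point per gene. Insl3 and Hsd3b1 lie high in both knockouts with Ptgds, Sult1e1 and Cyp21a1 of the other lists, and Srd5a1 lies low in both.

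The difference between same-genotype libraries reached beyond Insl3. Of the 10 genes, 2 (Insl3 and Hsd3b1) differed by at least 0.5 on the log2 scale in the same direction in both knockouts, against 4.85% of tested genes. Srd5a1 went the other way, with differences of -0.495 in Prdm9 KO and -0.715 in Hop2 KO. The median absolute difference of the 10 was 0.36 in Prdm9 KO and 0.25 in Hop2 KO, against 0.17 and 0.19 over all tested genes. In all, 3 of the 10 were higher and 4 lower in the libraries numbered 2 of both knockouts. Of all tested genes, 70.5% had the same direction in both knockouts, and this share is also the background for the marker counts below. Of the 8 other Leydig stage markers tested between knockouts, 2 (Ptgds and Sult1e1) were higher and 5 lower in the libraries numbered 2 of both. Ptgds, a prostaglandin D synthase, was 2113 and 6792 in the Prdm9 KO libraries, 1582 and 7321 in the Hop2 KO libraries, with 770 in wild type. Sult1e1, an estrogen sulfotransferase of Leydig cells, was 81.0 and 166, then 86.8 and 123, against 5.69. Akr1c14, a steroid dehydrogenase, went the other way, at 4.01 and 2.03, then 4.56 and 1.99, against 0.708. Cyp21a1, an adrenal steroid hydroxylase with a pseudogene copy that can share its reads, was 8.72 and 136, then 2.26 and 35.5, against 1.64. Among markers of other cells, all 6 peritubular and 7 of 8 macrophage markers were lower in the libraries numbered 2 of both knockouts. The smooth muscle gene Acta2, for instance, was 200 and 102 in Prdm9 KO and 251 and 154 in Hop2 KO. Of 10 Sertoli markers 6 were lower and 1 higher in both; the latter, Clu, was 4686 and 6076, then 3809 and 7713. Other adrenal markers were near 0, with Cyp11b1, Cyp11b2 and Mc2r at most 0.74 in any library, but Mrap, which Leydig cells also express, was 84.8 to 120 in the knockouts and 11.5 in wild type. The 6 adrenal markers together summed to 123 to 223 in the knockouts and 15.3 in wild type, and their part in the results was not tested. All 8 epididymal markers together summed to at most 0.818 in any library. All 4 spermatid markers tested were higher in the libraries numbered 2 of both knockouts, at very low levels. The spermatid gene Prm1 was 0.313 and 1.15 in Prdm9 KO and 0.0842 and 6.55 in Hop2 KO, against 27279 in wild type. The part of these differences in the spread of Insl3 was not tested.

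Genes that supply cholesterol and electrons to the pathway were higher in the knockouts as well. Of 16 such genes, 13 rose and 1 fell in both comparisons with wild type (median log2 1.64 in Prdm9 KO and 1.57 in Hop2 KO). Over all tested genes 34.6% rose and 39.4% fell in Prdm9 KO, and 35.0% rose and 39.5% fell in Hop2 KO. These shares are the background for all counts of rises and falls in the lists that follow. Tspo, a mitochondrial outer membrane protein, rose by 2.74 (SE 0.12) and 3.04 (SE 0.12) from 22.4 in wild type. Cyb5a, the cytochrome that favours the androgen-forming reaction of CYP17A1, rose by 2.30 and 2.55, and Fdxr, the reductase that passes electrons toward CYP11A1, by 2.09 and 2.43. Lipe, a hormone-sensitive lipase, went the other way: it was 14.4 and 15.2 in the Prdm9 KO libraries, 13.6 and 15.4 in the Hop2 KO libraries, with 451 in wild type (log2 -4.84 and -4.87, limma adjusted p = 8.58e-05 and 8.40e-05). The receptor gene Scarb1, which takes up cholesterol from lipoproteins, had log2 changes of 0.76 and 0.92 and did not pass (adjusted p = 0.0832 and 0.0537), and neither did Acbd3. These missing calls depended on the scaling. With columns rescaled, 15 of the 16 rose and 1 fell in both comparisons, so neither gene was left uncalled. With quantile normalization or median-ratio scaling 14 rose and 1 fell.

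Of 27 other steroid enzymes listed, 26 were in the table and 13 passed the filter on low values, so the counts cover only those. In Prdm9 KO 9 rose and 1 fell, and in Hop2 KO 10 rose and 1 fell. Sult1e1 rose by 4.13 (SE 0.53) and 3.97 (SE 0.53), and Hsd17b11 by 3.19 and 3.32. Cyp19a1, the aromatase that makes estrogen from androgen, fell by 3.90 and 3.82, from 16.4 in wild type to between 0.151 and 0.307 in the knockouts. Cyp21a1 did not pass (log2 3.79 and 2.05, SE 2.36, adjusted p = 0.221 and 0.477).

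Hormone receptors and regulators were mostly higher. Of 24, 22 were tested, of which 16 rose and 3 fell in Prdm9 KO and 15 rose and 3 fell in Hop2 KO. Rxfp2, the receptor of INSL3, was 19.1 in wild type and at most 0.0930 in the knockouts (log2 -4.20 and -4.26, SE 0.06). The ligand gene Insl3 had higher values in the knockouts but did not pass. Prlr, the prolactin receptor, rose by 2.74 and 2.48, and Cebpb by 2.56 and 2.72. Nr4a1, an immediate early transcription factor of steroidogenic cells, was 7.82 and 7.18 in the Prdm9 KO libraries, 9.95 and 22.0 in the Hop2 KO libraries, with 70.0 in wild type, and fell by 3.06 and 2.16 (SE 0.51, limma adjusted p = 0.00963 and 0.0243). The remaining gene that fell was Pdgfa, named here after its values were seen. With columns rescaled, the falls numbered 2 in Prdm9 KO and 1 in Hop2 KO. They numbered 2 and 3 with quantile normalization and 3 and 3 with median-ratio scaling.

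Androgen-responsive genes of Sertoli cells gave a mixed picture. Of 7, 5 rose in each knockout, and 1 fell in Prdm9 KO and 0 in Hop2 KO. Rhox5, a homeobox gene that depends on androgen in Sertoli cells and is listed under 2 identifiers with the same values, rose by 2.08 and 2.29, Drd4 by 2.57 and 2.66, and Gata1 by 2.49 and 2.68. Cldn3, a tight junction gene, was 25.8 and 9.53 in the Prdm9 KO libraries, 53.9 and 12.5 in the Hop2 KO libraries, with 240 in wild type. It fell by 3.84 in Prdm9 KO (SE 1.11, limma adjusted p = 0.0424) and did not pass in Hop2 KO (-3.15, adjusted p = 0.0692); the difference between knockouts was -0.70 (SE 0.79, adjusted p = 0.972). Under each of the other 3 scalings 0 of the 7 fell in Prdm9 KO.

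Of the 9 Leydig stage markers outside the 10 genes, 5 of which the enzyme or regulator lists also hold, 7 were tested and 5 rose in each knockout, among them Vcam1, of adult Leydig cells (3.18 and 3.19, SE 0.19), and Pdgfra, of progenitor cells (2.66 and 2.55, SE 0.45). Ptgds had changes of 2.30 and 2.14 (SE 1.31) and did not pass, and Akr1c14 did not pass either.

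**Figure D5:**
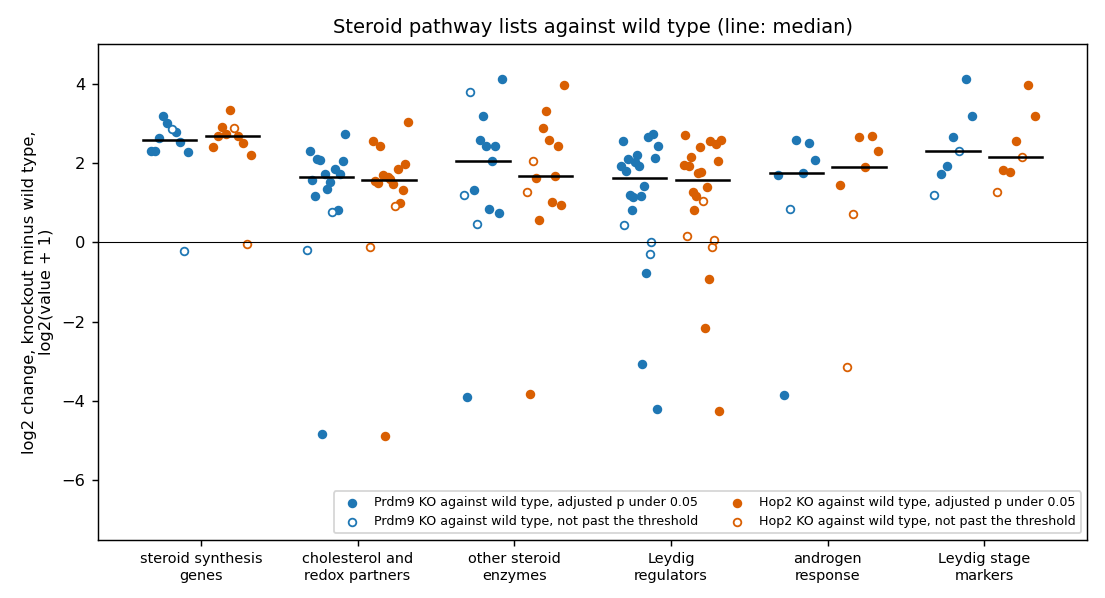
Log2 change from wild type for the tested genes of each list in Prdm9 KO (blue) and Hop2 KO (orange), with open symbols where the adjusted p missed 0.05 and a line at the median. The medians of all 6 lists lie between 1.57 and 2.69, and the lowest points are Lipe, Cyp19a1, Rxfp2, Nr4a1 and Cldn3.

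Most markers of Sertoli cells, macrophages, endothelium and spermatogonia were higher in the knockouts, those of spermatids were lower, and peritubular markers were mixed. The 10 Sertoli markers summed to 7202 to 11180 in the knockouts and 1812 in wild type, 9 of them rising in each knockout, with Clu, Aard and Inha the highest; Clu did not pass. All 8 macrophage markers rose, from a sum of 88.7 to between 465 and 810, with Lyz2, C1qb and C1qa the highest. Of 6 spermatogonial markers 5 rose in each knockout and Gfra1 fell in Hop2 KO, from a sum of 153 to between 501 and 604, led by Uchl1, Dmrt1 and Kit. The endothelial markers summed to 51.5 to 60.2 against 27.4 (4 of 6 rose in each, and Vwf fell in Prdm9 KO), led by Robo4, Vwf and Cdh5. The 6 peritubular markers summed to 161 to 374 against 903, a sum that Actg2 dominated in wild type (818), and Acta2 and Tagln came next over the libraries. Of the 6, 1 rose and 1 fell in Prdm9 KO, and 3 rose and 1 fell in Hop2 KO. All 6 spermatid markers fell, from a sum of 113179 to between 0.886 and 29.1, with Prm2, Prm1 and Tnp2 the highest in wild type. The falls of Vwf and Gfra1 were no longer called with rescaled columns or quantile normalization. The part of these changes in cell makeup in the values of the steroid genes and of the other lists, such as the falls of Rxfp2, Lipe and Cyp19a1, was not tested.

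The genes outside the list whose profile over the 5 libraries lay closest to the mean profile of the 10 were Cnp, Idh1, Foxo6, Vdac1 and Pank1, at Euclidean distances of 0.0428 to 0.102 among 9827 candidates. Idh1, a cytosolic dehydrogenase that yields NADPH, was 195 and 205 in the Prdm9 KO libraries, 204 and 213 in the Hop2 KO libraries, with 36.8 in wild type. The 10 genes themselves lay between 0.191 (Nr5a1) and 2.37 (Srd5a1) from their mean. Closest to Insl3 were Pcsk1n, Gadd45a and Ccl8, at 0.464 to 0.587. Pcsk1n was 97.1 and 126 in the Prdm9 KO libraries, 78.3 and 239 in the Hop2 KO libraries, with 21.1 in wild type. With 5 libraries and 1 large step from wild type, likeness of this kind is a description only.

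The genes lie on 7 chromosomes. In 1 library of single-stranded DNA from testes with a PRDM9 that lacks its KRAB domain, Prdm9 (K/K), the authors called 17731 peaks of meiotic breaks. Of the 10 genes, Lhcgr and Nr5a1 had a peak within the gene, 2 of 10, against 50.6% of 21887 protein-coding genes of RefSeq GRCm38.p6. The nearest peak to Hsd3b6 lay 325895 bases away, the farthest of the list, and the median over the 10 was 33042 bases. Longer genes have more room for a peak, and this was not tested.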

How the data were processed

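Gene and transcript values are the signal the authors deposited, named TPM in the file headers; columns sum to 825459 to 1622660, so the values were rescaled; the sources used here do not say how. The submitters' processing notes name CASAVA, kallisto, sleuth, MACS2 and the builds GRCm38 and mm10, with no role for each. The p-values and q-values of the deposited gene test and the positions of the deposited peaks are the authors'. Depth is unknown, so no counting error is given.

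The test was limma 3.58.1 (R 4.3.3) on log2(value + 1), with an intensity trend, for genes with a mean of at least 1, with Benjamini-Hochberg adjustment over all tested genes and a threshold of 0.05. A fold change on this scale understates that of low genes. Comparisons with wild type used all 5 libraries, the spread being taken from the knockouts; the knockouts were compared with each other over 4 libraries. The procedure was tested on simulated data. Alternatives changed the pseudocount, filter, scaling, moderation, libraries or replicate block. The genes and lists were chosen with earlier results of these data known. Named were all 10 genes, the 4 most changed of each pathway list and the 3 highest of each marker list; other names were chosen after their values were seen. Nearest profiles were sought among genes with a mean of at least 10. Small RNA tables and other assays were not used here.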

Additional observations from a re-analysis of the deposited data

How the results depend on the processing

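Of the 10 genes, 8 to 9 were called against wild type under the alternatives in Prdm9 KO and 7 to 9 in Hop2 KO, and 0 were called between knockouts under any of them. Between knockouts an unadjusted limma p under 0.05 was reached without Prdm9 KO replicate 1 by Hsd3b1 (0.0382), Cyp17a1 (0.0422) and Hsd3b6 (0.0448), and without Prdm9 KO replicate 2 by Hsd17b3 (0.0294). Among the alternative values 400 kept direction and side of the threshold, 21 changed sign, 6 gained the call and 3 lost it. For Insl3 and Hsd3b1 the changes of call are given with the results; the cause was not tested. Srd5a1 against wild type became positive with rescaled columns (0.62 in Prdm9 KO, 0.69 in Hop2 KO), quantile normalization (0.25, 0.45) and median-ratio scaling (0.034, 0.21), and ran from -0.46 to 0.037 and from -0.39 to 0.33 when each library was left out. Between knockouts Cyp11a1 became positive with rescaled columns (0.022) and quantile normalization (0.083), and Insl3 with rescaled columns (0.10) and median-ratio scaling (0.0081). Leaving out each library gave -0.035 to 0.17 for Star, -0.25 to 0.050 for Cyp11a1, -0.093 to 1.01 for Hsd3b1, -0.18 to 0.37 for Lhcgr, -0.87 to 0.83 for Insl3, -0.024 to 0.084 for Nr5a1 and -0.54 to 0.18 for Srd5a1. With fewer libraries, the fit has fewer degrees of freedom.

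The labels do not say that equal replicate numbers pair the libraries. Deviations from the genotype means correlated across genes at 0.413. With 2 libraries per genotype this is a single value whose sign depends on the numbering, so it cannot show such pairing. With the replicate block the count of the 10 called between knockouts stayed 0 (Hsd3b1 alone had an unadjusted limma p under 0.05, at 0.0242, adjusted p = 0.462), the count over all genes went from 2 to 8, and that at an unadjusted p under 0.05 from 445 to 1536. Over all settings, the count of all genes called higher ran from 0 (no filter, or the fit of all 5 libraries) to 11 (without Prdm9 KO replicate 2). A single wild-type library limits every comparison with it.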
